A study of Caenorhabditis elegans with 8 samples.

Results

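The HIF-1 pathway and the handling of hydrogen sulfide were followed here through 9 genes of Caenorhabditis elegans, hif-1, egl-9, vhl-1, rhy-1, cysl-1, cysl-2, sqrd-1, ethe-1 and phy-2. They were taken by symbol from a table of 17826 genes, and all 9 were among the 12382 genes tested. The samples were whole worms, 4 given 50 µM zidovudine and 4 given the DMSO vehicle, and their polyadenylated RNA was sequenced with 1 library each. All were wild-type N2 worms moved to the compound at larval stage 4 and harvested after 24 h, on day 1 of adulthood. Zidovudine is an antiretroviral thymidine analogue. The treatment protocol, shared by all samples, also names 5-fluorouracil, a pyrimidine analogue, in the plates, so both groups are taken to have carried it. Separate cultures are not stated in the labels, and the spread behind each p-value may be technical.

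HIF-1 is the hypoxia-inducible transcription factor. In air the hydroxylase EGL-9 marks the HIF-1 protein, VHL-1 recognises the mark and the protein is degraded, so much of the control acts on protein and is not seen in mRNA. Hydrogen sulfide enters the same circuit through CYSL-1, which binds EGL-9 and blocks it, while RHY-1, a multipass membrane protein, keeps CYSL-1 in check. Genes that HIF-1 is known to raise include rhy-1, egl-9, cysl-2, sqrd-1 and phy-2, and the mitochondrial enzymes SQRD-1 and ETHE-1 carry sulfide through to oxidised products.

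None of the 9 mRNAs was called as higher or lower with zidovudine, which does not show that they were unchanged. In limma, 0 of 9 passed an adjusted p of 0.05 and 0 of 9 had an unadjusted p under 0.05. Voom on the recovered reads also called 0. Over all tested genes 21 were called, which is 0.17%, and 11.8% had an unadjusted p under 0.05. The fold changes of the 9 genes ran from -0.084 to 0.18 on the log2 scale, with 5 above 0 and 4 below, where 52.3% of all tested genes were above 0. Their median was 0.045, against 0.0082 over all tested genes. The groups overlapped for each of the 9 genes. Over all tested genes 6.65% had no overlap, a share too small for 0 of 9 to stand out.

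The libraries held 30449021 to 56930820 reads assigned to genes. The flow cell of DMSO 4, as its description gives it, was not that of the other 7, and an effect of the flow cell cannot be told apart from that library. It listed 8.24% of genes at 0 reads, against 1.07% to 2.17% in the others. None of the 9 genes had fewer than 180 reads in any library, the lowest count being that of ethe-1 in DMSO 3. Positions are those of Ensembl release 115 on the build WBcel235, all 9 genes being protein coding there. In whole worms, fewer cells of a type and less RNA per cell cannot be told apart.

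The gene of the transcription factor itself, hif-1 (WBGene00001851; chromosome V, 20780407 to 20785260, forward strand), was at 6.94, 7.04, 7.05 and 7.18 log2 CPM in zidovudine libraries 1 to 4, against 6.96, 6.95, 7.11 and 6.72 log2 CPM in DMSO libraries 1 to 4. DMSO 4 was the lowest of the 8 and zidovudine 4 the highest, and the others overlapped. The mean was 7.05 ± 0.10 with zidovudine and 6.94 ± 0.16 with DMSO (SD, n = 4 each). The log2 fold change was 0.12, with a 95% interval of -0.055 to 0.29 (limma adjusted p = 0.585), which on the linear scale runs from 1.04-fold lower to 1.22-fold higher. Within the flow cell of the other 7 libraries, that is without DMSO 4, it was 0.044 (limma adjusted p = 0.910). Without DMSO 3 it was 0.18, and the 95% interval, 0.00094 to 0.35, then left out 0 (limma adjusted p = 0.372).

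A pair of negative regulators acts on the HIF-1 protein. The prolyl hydroxylase gene egl-9 (WBGene00001178; chromosome V, 10468517 to 10476915, forward strand) had 5.45, 5.29, 5.52 and 5.59 log2 CPM in zidovudine libraries 1 to 4, against 5.37, 5.39, 5.37 and 5.33 log2 CPM in the DMSO libraries. The SD was 0.13 with zidovudine and 0.023 with DMSO, whose libraries lay close together. In the zidovudine group 3 libraries were above all DMSO libraries, and zidovudine 2 was below them all. This gave a log2 fold change of 0.099, with a 95% interval of -0.063 to 0.26 (limma adjusted p = 0.623). Leaving out zidovudine 2 gave 0.16, with a 95% interval of 0.0034 to 0.31 (limma adjusted p = 0.275), and leaving out zidovudine 4 gave 0.056 (limma adjusted p = 0.907).

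The exons of hif-1 add up to 2960 nt and those of egl-9 to 3396 nt, against a median of 1438 nt over the tested genes. Across the 12376 tested genes with an exon length, which are not independent replicates, the Spearman correlation of the log2 fold change with length was 0.366. After each library's trend on length was removed, the log2 fold change was 0.059 for hif-1 and 0.033 for egl-9. It also shrank for rhy-1 (to 0.15) and cysl-2 (to -0.074). For vhl-1 (0.12), ethe-1 (0.11), sqrd-1 (-0.10), phy-2 (-0.045) and cysl-1 (-0.019) it grew in size.

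The second regulator, vhl-1, encodes the substrate-recognition subunit of a ubiquitin ligase (WBGene00006922; chromosome X, 11307356 to 11308518, forward strand). It had 3.36, 3.27, 3.69 and 3.26 log2 CPM in the zidovudine libraries, against 3.67, 3.29, 2.93 and 3.39 log2 CPM in the DMSO libraries. It varied most among the 9 genes, and the DMSO libraries spread wider than the zidovudine libraries and reached lower, with DMSO 3 the lowest of the 8. The residual SD was 0.258 on the log2 scale, against a median of 0.183 for the 500 tested genes nearest to it in level. Its log2 fold change of 0.071 therefore came with the widest interval of the 9, -0.25 to 0.39, or 1.19-fold lower to 1.31-fold higher (limma adjusted p = 0.870). Leaving out zidovudine 3 gave -0.027 and leaving out DMSO 3 gave -0.059.

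The gene of the regulator that keeps CYSL-1 in check, rhy-1 (WBGene00012324; chromosome II, 9161379 to 9163448, forward strand), was at 4.95, 5.04, 5.03 and 5.05 log2 CPM with zidovudine, against 4.84, 5.06, 4.84 and 4.61 log2 CPM with DMSO. The zidovudine libraries were close together, at 5.02 ± 0.044, and all lay inside the range of the DMSO libraries, at 4.84 ± 0.18 (SD, n = 4 each). The log2 fold change of 0.18 was the largest of the 9, and its 95% interval of -0.017 to 0.37 included 0 (limma adjusted p = 0.467; exact two-sided permutation p = 0.143, where 4 against 4 can give 0.0286 at the least). In DMSO 4, rhy-1 had its lowest value, as hif-1 did, and without that library the log2 fold change was 0.10 (limma adjusted p = 0.795). Without DMSO 2, the highest library, it was 0.25, with a 95% interval of 0.058 to 0.44 that left out 0 (limma adjusted p = 0.331). rhy-1 overlaps W07A12.8 on the opposite strand by 82 nt of its 1668 nt of exon, and it is not given in the sources used here whether counting used the strand.

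**Figure D1:**
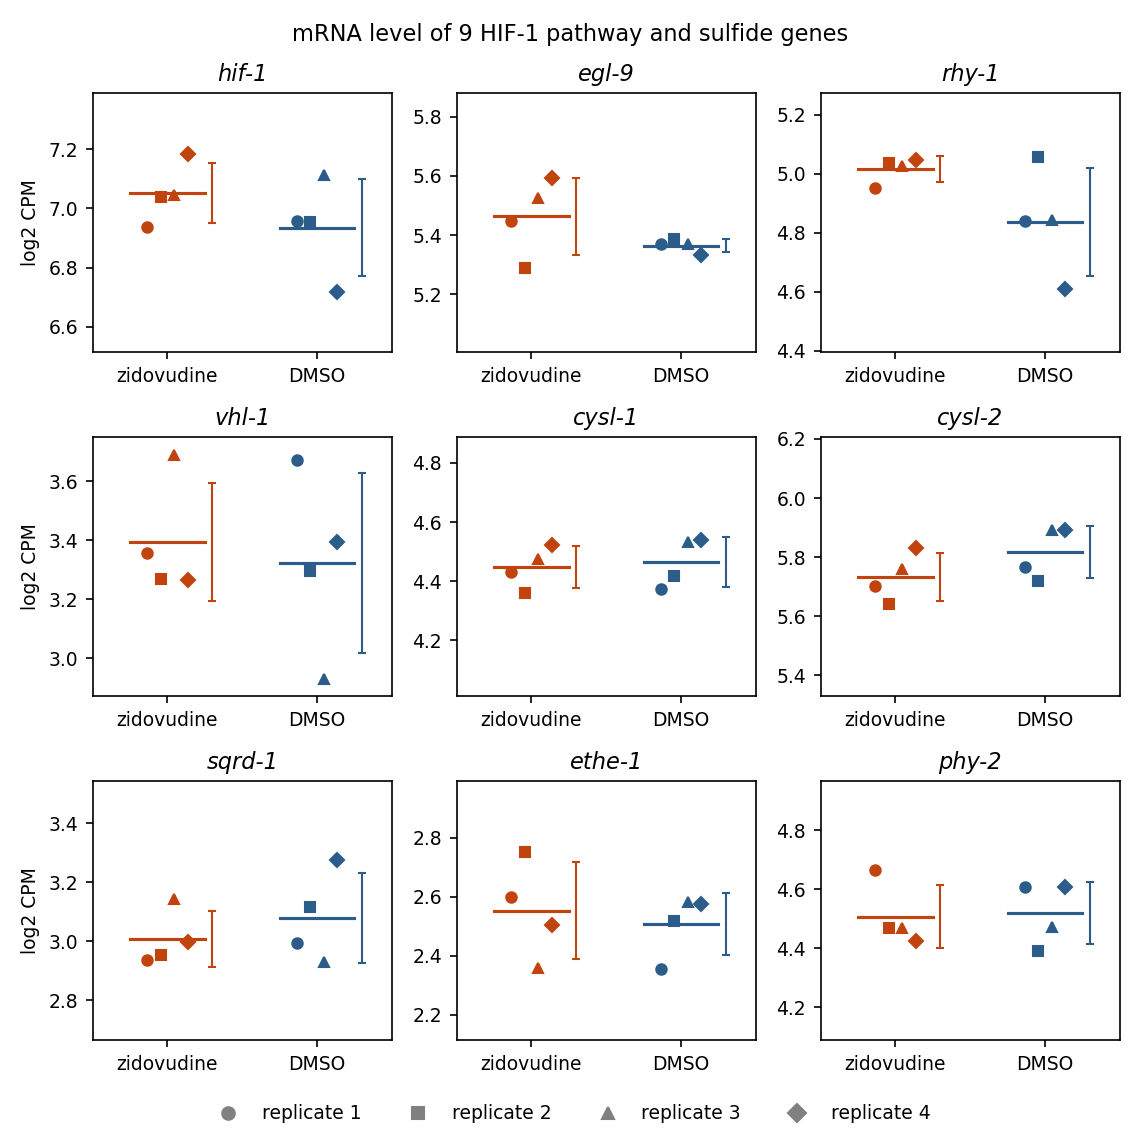
Level of each of the 9 genes in log2 CPM (vertical axis; every panel spans the same number of log2 units and none starts at 0) in zidovudine libraries (left, orange) and DMSO libraries (right, blue). Points are libraries, horizontal lines are means and error bars are SD with n = 4; in every panel the groups overlap, and hif-1 and rhy-1 are lowest in DMSO 4.

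CYSL-1 resembles a cysteine synthase and serves as the sulfide-responsive partner of EGL-9. Its gene (WBGene00007653; chromosome X, 9952579 to 9954533, reverse strand) had 4.43, 4.36, 4.48 and 4.52 log2 CPM with zidovudine, against 4.37, 4.42, 4.53 and 4.54 log2 CPM with DMSO. Both groups covered nearly the same range, and the log2 fold change was -0.018, with a 95% interval of -0.20 to 0.16, or 1.15-fold lower to 1.12-fold higher (limma adjusted p = 0.950). Of the tested genes, 9.67% had a smaller change.

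The related enzyme CYSL-2 makes cyanoalanine from cyanide and cysteine, and its mRNA is a well-known readout of HIF-1 activity in the worm. The gene (WBGene00010759; chromosome II, 14492874 to 14494451, reverse strand) was at 5.70, 5.64, 5.76 and 5.83 log2 CPM in the zidovudine libraries, against 5.77, 5.72, 5.89 and 5.89 log2 CPM in the DMSO libraries. Zidovudine libraries 1 and 2 were below all DMSO libraries, and zidovudine 3 and 4 lay among them. At -0.084, the log2 fold change was the lowest of the 9, with a 95% interval of -0.23 to 0.067 (limma adjusted p = 0.650). The interval runs from 1.18-fold lower to 1.05-fold higher. cysl-1 and cysl-2 are paralogues, and whether reads were shared between them was not tested. cysl-2 also overlaps vnut-1 on the opposite strand by 36 nt.

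Sulfide is oxidised first by sulfide:quinone oxidoreductase. Its gene sqrd-1 (WBGene00008538; chromosome IV, 14219871 to 14224440, forward strand) was at 2.94, 2.95, 3.14 and 2.997 log2 CPM with zidovudine, against 2.99, 3.12, 2.93 and 3.28 log2 CPM with DMSO. All zidovudine libraries lay inside the DMSO range, whose top was DMSO 4. The log2 fold change was -0.072, with a 95% interval of -0.33 to 0.19 (limma adjusted p = 0.8294), and it was -0.0065 without DMSO 4.

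The persulfide dioxygenase ETHE-1 acts after SQRD-1. Its gene (WBGene00007886; chromosome IV, 9506936 to 9508761, reverse strand) had 2.60, 2.75, 2.36 and 2.50 log2 CPM with zidovudine, against 2.36, 2.52, 2.58 and 2.58 log2 CPM with DMSO. The highest library of all was zidovudine 2, and the lowest of each group were almost equal. Its log2 fold change was 0.045, with a 95% interval of -0.25 to 0.34 (limma adjusted p = 0.912). For these 2 genes, with 180 to 448 reads per library, the intervals still reach 1.26-fold lower for sqrd-1 and 1.26-fold higher for ethe-1.

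The last gene, phy-2, encodes an alpha subunit of the collagen prolyl 4-hydroxylase, which modifies cuticle collagens and belongs to the same broad enzyme class as EGL-9. It lies on chromosome IV (WBGene00004025; 12211097 to 12215987, reverse strand) and had 4.66, 4.47, 4.47 and 4.43 log2 CPM with zidovudine, against 4.61, 4.39, 4.47 and 4.61 log2 CPM with DMSO. Its log2 fold change of -0.012 was the closest to 0 of the 9 genes, with a 95% interval of -0.20 to 0.18 (limma adjusted p = 0.968). Leaving out zidovudine 2, 3 or 4, DMSO 1 or DMSO 4 turned it to between 0.00029 and 0.017.

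The 9 mRNAs differed widely in level. Per kilobase of exon, on the log2 scale, cysl-2 was highest, at 5.57 ± 0.081 with zidovudine and 5.65 ± 0.088 with DMSO (SD, n = 4 each). hif-1 followed at 5.49 ± 0.10 with zidovudine and 5.37 ± 0.16 with DMSO; its range over libraries overlapped that of cysl-2 with zidovudine and lay below it with DMSO. This placed cysl-2 above 73.7% of the tested genes with zidovudine and above 75.0% with DMSO.

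A middle group came next. rhy-1 was at 4.28 log2 CPM per kb with zidovudine and 4.10 with DMSO, and cysl-1 at 4.14 with zidovudine and 4.16 with DMSO. Between them the ranges overlapped in both groups. phy-2 (3.71 with zidovudine and 3.72 with DMSO), egl-9 (3.70 and 3.60 in the same groups) and vhl-1 (3.55 and 3.48) had overlapping ranges too, from each to the next.

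The sulfide-oxidising enzymes were the lowest. ethe-1 was at 2.81 log2 CPM per kb with zidovudine and 2.77 with DMSO. sqrd-1 was at 2.28 with zidovudine and 2.35 with DMSO, above 31.1% of the tested genes with zidovudine and 32.0% with DMSO. The ranges of ethe-1 and sqrd-1 did not overlap in either group. With coding length in place of exon length, ethe-1 and sqrd-1 were again the lowest in both groups. At the top, hif-1 was then above cysl-2 with zidovudine, at 5.79 and 5.72 log2 CPM per coding kb, and below it with DMSO, at 5.67 and 5.80.

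**Figure D2:**
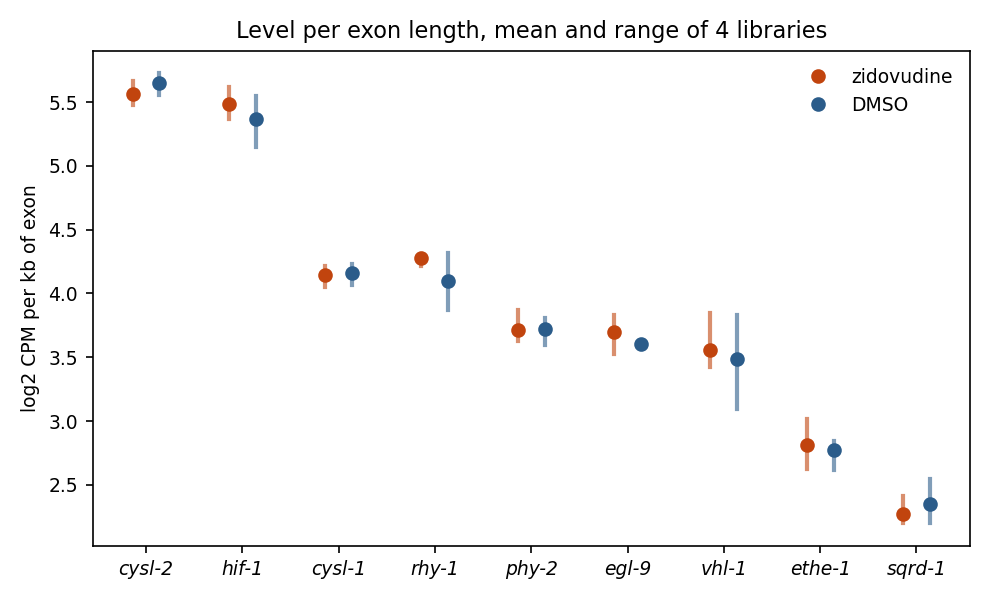
Level of each gene in log2 CPM per kb of exon (vertical axis, not starting at 0), with zidovudine (orange, left) and DMSO (blue, right) side by side. Points are means of 4 libraries and bars run from the lowest to the highest library; cysl-2 and hif-1 stand above 5 in all libraries of both groups, and sqrd-1 is lowest in both.

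The ratio of a pair of genes within a library does not depend on how libraries were scaled, so the log2 ratios of all 36 pairs were compared between the groups. One pair, hif-1 over cysl-2, reached the smallest p that 4 against 4 libraries allow. Per kb its log2 ratio was -0.080 ± 0.072 with zidovudine and -0.28 ± 0.20 with DMSO (SD, n = 4 each), a difference of 0.20 (exact two-sided permutation p = 0.0286; Benjamini-Hochberg adjusted over 36 pairs, 0.686). The groups were separated narrowly, with -0.1640 in the lowest zidovudine library and -0.1643 in the highest DMSO library. The lowest DMSO value, -0.574, was that of DMSO 4, the library from another flow cell. Without DMSO 4 the log2 fold change was 0.044 for hif-1 and -0.059 for cysl-2. No pair passed after adjustment.

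The genes were also set against each other across the 8 libraries, again for 36 pairs. cysl-1 and cysl-2 went together most closely, with a Pearson r of 0.88 (exact permutation p = 0.00585, adjusted over the pairs 0.211) and a Spearman rho of 0.83 (exact permutation p = 0.0154, adjusted 0.277). Without the 2 libraries farthest from the median of cysl-1, r was 0.77, and without DMSO 4 it was 0.84. Within the groups r was 0.99 with zidovudine and 0.91 with DMSO. Per kb the log2 ratio of cysl-1 over cysl-2 was -1.42 ± 0.015 with zidovudine and -1.49 ± 0.036 with DMSO (SD; exact permutation p = 0.0571, adjusted 0.686). rhy-1 and phy-2 ran in opposite directions by rank, with a rho of -0.86 (exact permutation p = 0.0107, adjusted 0.277) and an r of -0.62 (exact permutation p = 0.0891, adjusted 0.534; r = -0.41 without the 2 libraries farthest from the median of rhy-1).

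hif-1 and rhy-1 had an r of 0.71 (exact permutation p = 0.0576, adjusted 0.534) and a rho of 0.38 (exact permutation p = 0.360, adjusted 0.876). That relation changed with the libraries included. Without the 2 libraries farthest from the median of hif-1 r was -0.17, and without DMSO 4 it was 0.15. Inside each group, r was 0.85 with zidovudine and 0.62 with DMSO (n = 4 each). None of the 36 pairs passed after adjustment.

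**Figure D3:**
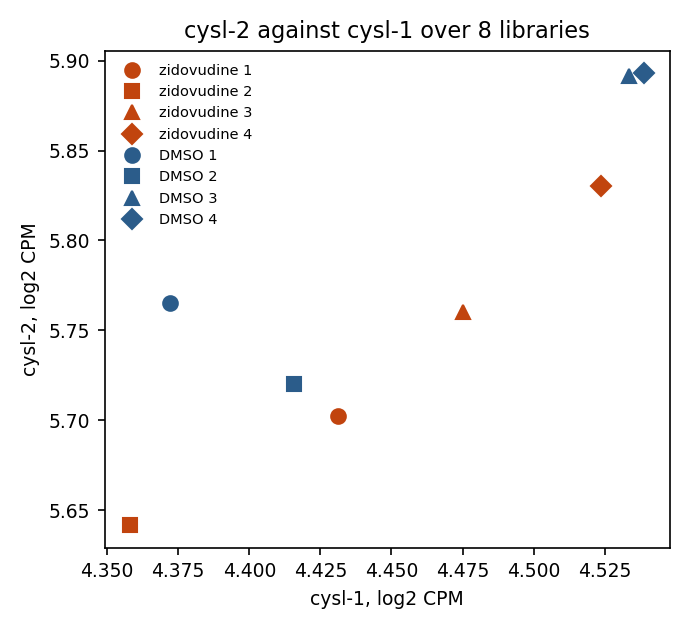
Level of cysl-2 (vertical axis, log2 CPM) against that of cysl-1 (horizontal axis, log2 CPM) in each library, zidovudine in orange and DMSO in blue, with the marker giving the replicate. Zidovudine 2 is lowest and DMSO 3 and DMSO 4 are highest on both axes. The groups overlap on each axis, and cysl-2 relative to cysl-1 is higher on average with DMSO.

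Genes with the most similar pattern over the 8 libraries were looked up for 6 of the members among all tested genes, as a description in which library differences are shared by many genes. For hif-1 they were zer-1 (Pearson r = 0.98), wip-1 (0.97) and tfbm-1 (0.97), and 96 tested genes exceeded 0.9. For egl-9 they were enpl-1 (0.98), F33H1.4 (0.98) and F56C9.10 (0.97), and for rhy-1 F10E7.11, unc-53 and rnf-145 (0.97 each). Fewer genes matched the others above 0.9: 11 for cysl-2, led by clec-210 (0.96), adt-2 (0.95) and dcaf-1 (0.94), 11 for sqrd-1, led by atad-3 (0.95), dnj-12 and F46F2.5 (0.94 each), and 8 for phy-2, led by nhr-40 and Y48G1C.6 (0.94 each) and F44F1.6 (0.92).

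The rest of the pathway was examined through 5 lists holding 42 other genes, of which 36 were in the table and 34 were tested. None of the 34 passed the adjusted threshold in limma or in voom. At an unadjusted p under 0.05 there were 4, or 11.8% of the 34 as of all tested genes. The median log2 fold change was -0.029, with 16 genes above 0 and 18 below. The groups did not overlap for 6 of them, namely ftn-1, nhr-46, aha-1, mpst-1, mpst-7 and pdi-2, where 6.65% of all tested genes had no overlap.

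Of the partners of HIF-1 and the VHL ubiquitin ligase, 0 of 6 passed, with 3 above 0 and 3 below and a median of -0.011. aha-1, the partner with which HIF-1 binds DNA, was at 4.49 ± 0.022 log2 CPM with zidovudine and 4.37 ± 0.095 with DMSO (SD, n = 4 each; log2 fold change 0.12, limma adjusted p = 0.589). cul-2, the cullin gene, had a log2 fold change of 0.076 (limma adjusted p = 0.672). swan-1, for a WD-repeat protein, had the smallest p of this list (log2 fold change 0.13, limma adjusted p = 0.495).

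Among genes reported to be controlled by HIF-1 or to act downstream of it in the worm, 0 of 9 passed, with 4 above 0, 5 below and a median of -0.13. With the length trend removed the median was 0.026. HIF-1 does not raise every gene of this list, ftn-1 being known as repressed by it, so the median is no measure of HIF-1 activity. The nuclear receptor gene nhr-57, often used as a reporter of HIF-1, had a log2 fold change of 0.050 with a 95% interval of -0.21 to 0.31 (limma adjusted p = 0.890). F22B5.4 was at -0.13 (limma adjusted p = 0.795) and the cysteine dioxygenase gene cdo-1 at -0.14 (limma adjusted p = 0.627).

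ftn-1, a ferritin gene which HIF-1 is known to repress when iron is low, came closest to the threshold. It was at 0.99, 0.67, 1.10 and 0.49 log2 CPM in zidovudine libraries 1 to 4, against 1.74, 2.20, 2.16 and 1.38 log2 CPM in DMSO libraries 1 to 4. All zidovudine libraries were below all DMSO libraries, on 49 to 162 reads. The log2 fold change was -1.06 (SE 0.22, 95% interval -1.54 to -0.58, limma adjusted p = 0.0824), a 2.08-fold lower level. Over the other settings the adjusted p ran from 0.0107 to 0.252, and it passed the threshold with sample quality weights, without DMSO 4 (limma adjusted p = 0.0162) and without DMSO 4 and zidovudine 2 together.

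The second ferritin gene, ftn-2, and the nuclear receptor gene nhr-46 were named after their values were seen, as the other genes of this list with an unadjusted p under 0.05. ftn-2 was at 6.98 ± 0.12 log2 CPM with zidovudine and 7.16 ± 0.089 with DMSO (SD, n = 4 each; log2 fold change -0.18, limma adjusted p = 0.342). With the length trend removed the log2 fold change of ftn-2 was -0.041 (limma adjusted p = 0.839), and over all other settings the adjusted p ran from 0.0849 to 0.839. nhr-46 was at 5.62, 5.69, 5.61 and 5.72 log2 CPM with zidovudine, against 5.36, 5.35, 5.53 and 5.27 log2 CPM with DMSO (log2 fold change 0.29, SE 0.074, limma adjusted p = 0.144). It did not pass in any of the 19 other settings, where the adjusted p ran from 0.0760 to 0.422.

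Hydrogen sulfide is made by enzymes of transsulfuration and by mercaptopyruvate sulfurtransferases. In this list 0 of 9 tested genes passed, with 3 above 0, 6 below and a median of -0.046. cbs-1, for cystathionine beta-synthase, had a log2 fold change of -0.12 (limma adjusted p = 0.619). Those of the cystathionine gamma-lyase genes were -0.012 for cth-1 (limma adjusted p = 0.977) and -0.046 for cth-2 (limma adjusted p = 0.795). cth-2 was the more abundant of them, at 7.08 ± 0.088 log2 CPM with zidovudine and 7.13 ± 0.084 with DMSO (SD, n = 4 each).

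The paralogue cysl-3 had a log2 fold change of 0.12 (limma adjusted p = 0.654). cysl-4 had 10 to 54 reads per library and a mean under 0 log2 CPM, and was not tested. mpst-7 had the smallest p of the list (log2 fold change 0.32, SE 0.17, limma adjusted p = 0.473). mpst-1, named after its values were seen because its groups did not overlap, was at 5.49 ± 0.031 log2 CPM with zidovudine and 5.58 ± 0.021 with DMSO (SD, n = 4 each; log2 fold change -0.096, limma adjusted p = 0.567).

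For the oxidation of sulfide, sulfite and cysteine, which includes the synthesis of the molybdenum cofactor that sulfite oxidase needs, 0 of 7 tested genes passed, with 4 above 0, 3 below and a median of 0.015. The sulfite oxidase gene suox-1 was at 4.83 ± 0.033 log2 CPM with zidovudine and 4.78 ± 0.13 with DMSO (SD, n = 4 each; log2 fold change 0.050, limma adjusted p = 0.828). semo-1, listed in the file as Y37A1B.5, had the smallest p (log2 fold change 0.30, SE 0.17, limma adjusted p = 0.545). sqrd-2 was listed but was not found in the table, so no result is given for it.

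Of the collagen prolyl 4-hydroxylase list, 0 of 4 tested genes passed, with 2 above 0 and 2 below and a median of 0.038. dpy-18, for the other alpha subunit that works beside PHY-2, was at 4.85 ± 0.13 log2 CPM with zidovudine and 4.72 ± 0.16 with DMSO (SD, n = 4 each; log2 fold change 0.13, limma adjusted p = 0.608). phy-3 was at -0.38, on 31 to 74 reads per library (limma adjusted p = 0.616). pdi-2, the disulfide isomerase that forms the beta subunit, had the smallest p of the list (log2 fold change 0.23, SE 0.064, limma adjusted p = 0.182), and its groups did not overlap.

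**Figure D4:**
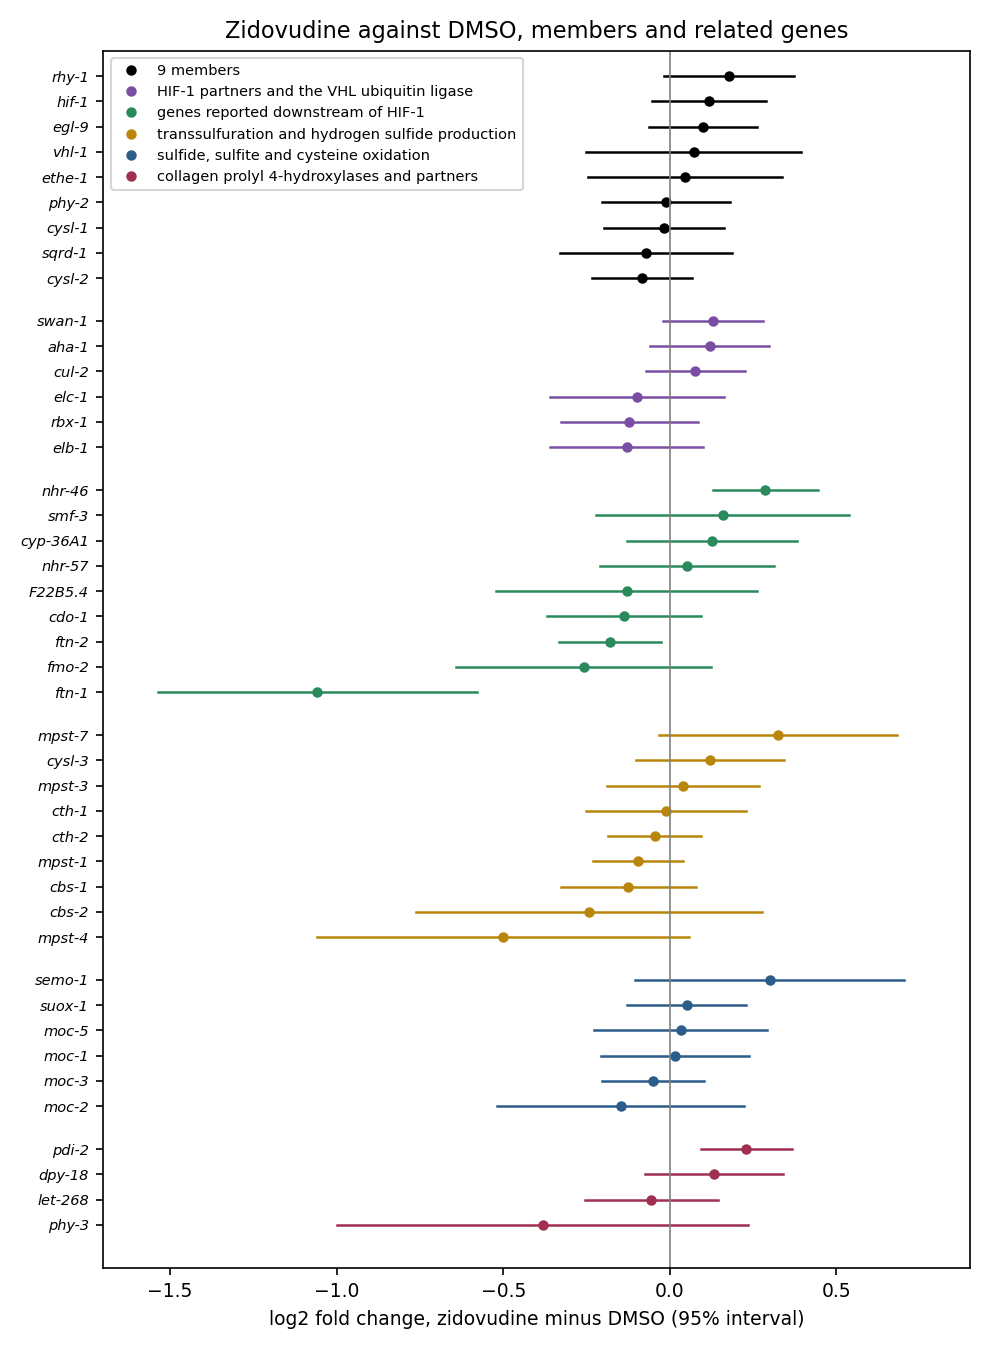
Log2 fold change, zidovudine minus DMSO (horizontal axis), with its 95% interval from limma for the 9 members (black) and the tested genes of the 5 related lists (colours), 1 gene per row; cdo-1 belongs to 2 lists and is drawn once. The intervals of all 9 members include 0; those of ftn-1, ftn-2, nhr-46 and pdi-2 do not, though none of these passed after adjustment.

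Markers of 7 tissues were detected in these whole worms, with reads in every library for every marker in the table. Some were near the floor, with 3 to 16 reads per library for ceh-22 of the pharynx, 10 to 28 for spe-9 of sperm and 16 to 35 for wrt-2 of the hypodermis. These had a mean under 0 log2 CPM and were not tested. The median log2 fold change was -0.14 for 7 tested hypodermis markers, 0.16 for 7 of the intestine, 0.13 for 6 of body wall muscle, 0.34 for 5 of the pharynx, 0.086 for 8 of neurons, -0.37 for 7 of sperm and 0.084 for 8 of oocyte and germ line. None of the tested markers passed the adjusted threshold. The summed pharynx markers ranged from 7.12 to 7.38 log2 CPM with zidovudine and from 6.83 to 6.99 with DMSO, and the summed sperm markers from 4.73 to 5.04 with zidovudine and from 5.15 to 5.52 with DMSO. The marker lists also differ in exon length, with which the fold change correlated across genes. Their median was 384 nt for sperm, 1089 nt for hypodermis, 1743 nt for intestine and 2131.5 nt for neurons. It was 2158 nt for pharynx, 2630.5 nt for oocyte and germ line and 2953.5 nt for body wall muscle. The part of tissue composition in the values above was not tested, nor was that of length in the marker medians.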

How the data were processed

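RNA of whole worms was sequenced from 4 zidovudine and 4 DMSO samples, 1 library each. Per the labels' protocols, mRNA was captured on oligo-dT beads and libraries were directional. Per the submitters' processing notes, which give no roles, the tools were HISAT2 2.1.0 and HTSeq 0.11.0, limma 3.40.6 and edgeR 3.26.8, and Trimmomatic 0.32 with FastQC. Not given in the sources used here were the build, the annotation and the strand setting. The authors deposited log2 CPM, headed CPM, with a prior of 2 reads. Whole reads were recovered for 100% of values within 0.05 reads.

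limma-trend (limma 3.58.1, R 4.3.3, robust, two-sided) was run on genes whose mean reached 0 log2 CPM, group as the only term, with Benjamini-Hochberg adjustment over 12382 genes and a threshold of 0.05. The unit being log2, the count test was not used. The script was tested on simulated data. Fold changes are zidovudine minus DMSO; the prior pulls that of low genes toward 0. Exact permutation tests were over libraries. Per degree of freedom, replicates differed by a chi-square between 17.5 and 88.2, so none was counted as a repeat.

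The 9 genes, the 5 related lists and the 7 marker lists were chosen with earlier results of these data known. Named were all 9, 15 related genes whatever their result, each list's member with the smallest p, and any past the threshold; exceptions are stated. Of 103 listed genes 96 were in the table, 3 of them matched by gene ID under an older name. Alternatives were other scalings, voom, a prior of 0.5 reads, other filters, a replicate block, quality weights, removal of the length trend and leaving out libraries.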

Additional observations from a re-analysis of the deposited data

Results flagged for a closer look

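ftn-2, a ferritin gene, had 1 library apart from the rest of its group. It was at 7.17 log2 CPM in zidovudine 2, against 6.90 to 6.94 log2 CPM in the other zidovudine libraries and 7.04 to 7.24 log2 CPM in the DMSO libraries. Chance gives such a library in about 1 in 20 groups, and 1 of the 58 groups of 4 examined had one; none of the 9 members did.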

How the results depend on the processing

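In 19 other settings none of the 9 genes passed the threshold, the smallest adjusted p being 0.275 for egl-9. hif-1, egl-9, rhy-1 and cysl-2 kept their direction in all 19, with ranges of 0.044 to 0.18, 0.056 to 0.16, 0.10 to 0.25 and -0.12 to -0.053 when 1 library was left out. The others, all with main values near 0, did not. Leaving out 1 library at a time gave vhl-1 -0.059 to 0.19, cysl-1 -0.049 to 0.012 (above 0 without zidovudine 2, DMSO 3 or DMSO 4), ethe-1 -0.021 to 0.11 (below 0 without zidovudine 2 or DMSO 1) and phy-2 -0.065 to 0.017. sqrd-1, at -0.12 to -0.0065, stayed below 0. For related genes the same ranges were -0.016 to 0.089 for nhr-57 (below 0 without DMSO 4) and -0.072 to 0.089 for cth-1 (above 0 without zidovudine 1, zidovudine 3 or DMSO 3). With sample quality weights cysl-1 was at 0.013, ethe-1 at -0.0025 and phy-2 at 0.019. Without DMSO 4 and zidovudine 2 together cysl-1 was at 0.036, sqrd-1 at 0.012, phy-2 at 0.030 and nhr-57 at -0.024. With the length trend removed F22B5.4 was at 0.028. The cause was not tested.

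Over all genes, 7 were higher and 14 lower. The counts were 6 and 7 with quantile normalization, 5 and 7 with library totals, 2 and 2 without the trend, 7 and 8 with a filter at 1 log2 CPM, 74 and 74 with quality weights, 11 and 14 with the length trend removed, and 49 and 107 without DMSO 4 and zidovudine 2 together. Leaving out 1 library gave 1 (without zidovudine 3, zidovudine 4 or DMSO 1) to 17 (without DMSO 3) higher and 3 (without DMSO 1) to 28 (without zidovudine 2) lower. With the replicate number as a block, 1 was higher and 8 were lower, and no member was called; deviations of same-numbered libraries correlated at -0.32 to 0.14, and 1 of 4 zidovudine libraries correlated best with its own number, so the numbers were not taken as pairs.

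The median of the 9 genes was 0.083 with quantile normalization and 0.00029 (without zidovudine 3) to 0.056 with 1 library left out. That of the genes downstream of HIF-1 was 0.026 with the length trend removed, and that of the collagen hydroxylases 0.13 with a filter at 1 log2 CPM, which drops phy-3. In the order of levels by coding length, a comparison added after seeing the data, vhl-1 stood above egl-9 and phy-2, and egl-9 above phy-2, in both groups; hif-1 stood above cysl-2 with zidovudine, and vhl-1 above rhy-1 with DMSO. RefSeq coding lengths were not used here. In the main fit the members' 95% intervals reach at most 1.31-fold higher and 1.26-fold lower. Over the 19 other settings they reach further, to a log2 fold change of 0.52 for vhl-1 and -0.41 for sqrd-1. The ends of the intervals are not a limit of detection.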
